A study of Mus musculus with 2 samples.

Results

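The EF-hand calcium buffer genes described here across the cells of the young mouse cochlea are Ocm, Pvalb, Calb1, Calb2, S100a1 and S100b. These 6 were chosen by symbol, and all were found among the 27998 genes of the count tables. The tissue was cochlea of wild type C57BL/6 mice, 20 days after birth, taken apart with trypsin and read by droplet single-cell RNA sequencing on an Illumina HiSeq. There was 1 group with 2 libraries, called library 1 and library 2. Between 5 and 8 mice were used, so animals were pooled, and the labels do not say that the libraries came from different animals. The p-values below therefore set class differences only against how far cell clusters differed between these libraries beyond the overall difference of the libraries. This spread was estimated over all fitted clusters together, was mostly shared between genes, and may be technical.

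An EF-hand is a helix, a loop and a helix, in which acidic side chains of the loop hold a calcium ion. Oncomodulin (Ocm) and parvalbumin (Pvalb) belong to the parvalbumin family, and calbindin (Calb1) and calretinin (Calb2) form a pair of larger proteins that buffer calcium in neurons and sensory cells. S100a1 and S100b encode small dimeric proteins that bind calcium and act on target proteins. In the mouse cochlea, oncomodulin is known as a protein of outer hair cells, calretinin of inner hair cells and many spiral ganglion neurons, and the S100 proteins of supporting cells, glia and fibrocytes.

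The coding bases of the last matching EF-hand loop are shown for 5 of the genes because the genes are read out as separate transcripts of 1 protein fold. They come from the GENCODE M21 transcripts (mouse build GRCm38, the same assembly as mm10), run 5′ to 3′ on the coding strand, and carry 36 bases for 12 residues. Capitals mark codons for aspartate or glutamate.
Ocm: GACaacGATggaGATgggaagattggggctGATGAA
Pvalb: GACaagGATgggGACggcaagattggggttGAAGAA
Calb1: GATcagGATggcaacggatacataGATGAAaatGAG
Calb2: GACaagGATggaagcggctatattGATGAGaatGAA
S100a1: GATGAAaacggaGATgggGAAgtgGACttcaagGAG
Ocm and Pvalb shared 30 of these 36 bases and Calb1 and Calb2 shared 27. The loop pattern matched 2 times in Ocm, 2 in Pvalb, 4 in Calb1, 5 in Calb2 and 1 time in S100a1, whose first loop has a different shape. No stretch of 50 bases was shared between the transcripts of a member and those of any other gene, so reads of that length tell the 6 apart.

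The genes lie at chromosome 5, 144019804 to 144026670 (Ocm, minus strand, 5 exons), chromosome 15, 78191114 to 78206400 (Pvalb, minus strand, 4 exons), chromosome 4, 15881264 to 15908064 (Calb1, plus strand, 11 exons). The others lie at chromosome 8, 110137502 to 110168210 (Calb2, minus strand, 11 exons), chromosome 3, 90511034 to 90514392 (S100a1, minus strand, 3 exons) and chromosome 10, 76253853 to 76261159 (S100b, plus strand, 3 exons). Only S100b overlaps another annotated gene, Dip2a on the opposite strand. No source used here says whether the counting used strand, so reads of this pair could have been exchanged. Dip2a itself had 177 UMIs in library 1 and 97 in library 2, against 2518 and 1472 for S100b.

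Library 1 held 1329 cells with a median of 10601 UMIs (unique molecules counted), and library 2 held 640 cells with a median of 6115.5. They fell into 23 clusters, named from marker genes as hair cell-like, cochlear epithelium, cochlear fibrocyte and mesenchyme, and blood lineage classes, beside others. Hair cell-like cells, 48 in library 1 and 4 in library 2, made up clusters 17 and 21, which had 13 and 9 of 16 hair cell markers raised. Their mitochondrial share had a median of 10.02%, against 2.728% in all other cells, and in cluster 21 it was at most 3.511%. The libraries shared 2 cell barcodes. Levels are CPM, the UMIs of a gene scaled to the summed UMIs of the cells, with exact 95% Poisson intervals where given. Intervals and limits cover counting error only.

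**Figure D1:**
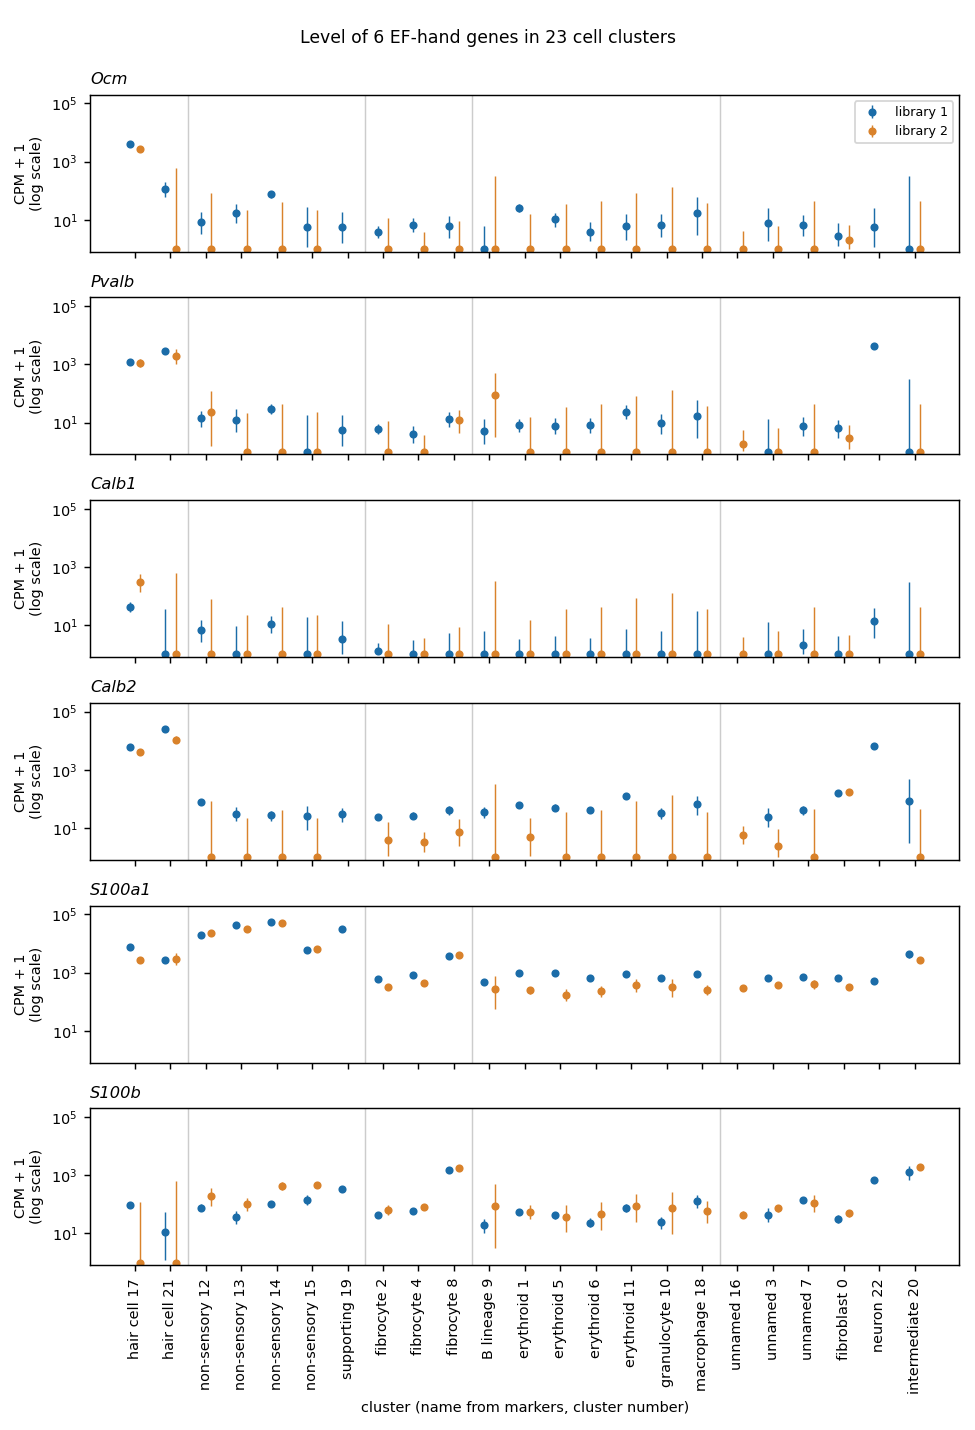
CPM + 1 on a log scale of each gene in each cluster, blue for library 1 and orange for library 2, with exact 95% Poisson intervals. Grey lines part hair cell-like, epithelium, fibrocyte, blood lineage and other clusters. Ocm, Pvalb and Calb2 stand highest in hair cell-like clusters and, for Pvalb and Calb2, in neurons (cluster 22). S100a1 stands highest in epithelium and S100b in clusters 8 and 20.

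Ocm was a hair cell transcript in these cells. It had 2522 UMIs in the 48 hair cell-like cells of library 1 and 83 in the 4 of library 2, or 3384 CPM (interval 3253 to 3518) and 2304 CPM (1835 to 2857). In the epithelium Ocm had 30.2 CPM in library 1 and 0 UMIs in library 2. In fibrocytes it had 3.86 CPM and 0 UMIs, and in blood lineage cells 10.25 CPM and 0 UMIs. Outside hair cells the highest cluster level was 73.1 CPM, reached in cluster 14 of library 1, where 59 of 65 Ocm UMIs sat in 1 cell that also held 27 hair cell marker UMIs and 9 Calb1 UMIs. In library 2 the 0 UMIs allow a level of at most 4.66 CPM in blood and 6.16 CPM in the epithelium, so Ocm was at least 494-fold higher in hair cell-like cells than in blood there and at least 374-fold higher than in the epithelium. These bounds set the measured hair cell level against 3 counts, and 63 of its 83 UMIs sat in 1 of 4 cells.

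In the fit across all genes, hair cell-like cells were set against the mean of the other classes, and 33.1% of the 3998 genes tested were called (21.7% higher and 11.4% lower). Of the 6 members, 5 passed the low-count filter and Calb1 did not. Ocm, Pvalb, Calb2 and S100a1 rose in hair cell-like cells, the last with a direction that turned under a marker gate, which takes single cells by their markers in place of clusters, and S100b did not pass the test. The Ocm log2 fold change was 9.22 ± 0.33 (SE, adjusted p = 1.49e-172, edgeR quasi-likelihood test with Benjamini-Hochberg adjustment). Since Ocm is 0 in nearly every other sum of library 2, this fitted size depends on the prior count and is no bound.

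Pvalb was detected in every hair cell-like cell and in every spiral ganglion neuron. It had 1406 CPM in hair cell-like cells of library 1 and 1277 in library 2, against 15.9 and 2.05 CPM in the epithelium, 5.31 and 2.28 in fibrocytes and 8.51 and 1.55 in blood lineage cells. The libraries lie close together in hair cells (1342 ± 91.2 CPM, SD, n = 2), and these classes do not overlap. A Pvalb UMI was seen in 48 of 48 and 4 of 4 hair cell-like cells, against 8.02% of blood lineage cells in library 1 (interval 5.91% to 10.6%) and 1 of 60 in library 2. The median depth was 14000.5 and 9485 UMIs in hair cell-like cells, against 10274 and 11065 in blood. Thinned to 2000 UMIs a cell, the shares in library 1 were 89.6% of hair cell-like cells and 1.78% of blood lineage cells. Its log2 fold change was 7.86 ± 0.30 (SE, adjusted p = 8.14e-152). Spiral ganglion neurons were not fitted and are not among the classes compared.

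Calb2 was highest in hair cell-like cells, most of all in cluster 21, and in spiral ganglion neurons. It had 8615 CPM in hair cell-like cells of library 1 and 5192 in library 2, against 40.4 CPM and 0 UMIs in the epithelium, 26.2 and 3.19 CPM in fibrocytes, and 55.02 and 1.55 CPM in blood. Cluster 21 had 25209 CPM in library 1 and 10996 in library 2 (1 cell), and cluster 17 had 5989 and 4031. The log2 fold change against the other classes, which leave out the spiral ganglion neurons, was 7.72 ± 0.33 (adjusted p = 1.92e-121). In the epithelium contrast Calb2 fell by 2.32 on the log2 scale (adjusted p = 4.05e-08), although the epithelium of library 1, at 40.4 CPM, was near the blood level of 55.02. The classes it was set against include the hair cell-like one. The call was lost without the replicate block (adjusted p = 0.123), with a stricter cell filter of 500 genes and 10% mitochondrial UMIs (0.13), under the marker gate (0.105) and with at least 10 cells per class and library (0.189).

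Connective tissue fibroblasts carried Calb2 in both libraries. Their level was 161.5 CPM in library 1 (interval 138.8 to 186.8) and 165.6 in library 2 (141.1 to 193.2), against 55.02 (49.4 to 61.1) and 1.55 (0.0394 to 8.66) in blood. The interval of each library holds the value of the other, and the intervals of fibroblasts and of blood as a whole do not overlap in either. Erythroid cluster 11 of library 1 had 129.1 CPM (101.7 to 161.6), which overlaps the fibroblast interval, and 42 of its 76 UMIs sat in 1 cell. Haemoglobin genes took 53.8% and 65.6% of blood UMIs, and without them the blood level of Calb2 was 119 CPM in library 1 and 4.51 CPM in library 2. Erythroid cells alone then had 208.7 CPM in library 1, above the fibroblasts there, and 12.7 CPM in library 2. UMIs were spread over cells: 79 of 150 and 63 of 166 fibroblasts had one, and 23 and 26 had 3 or more. The 10 highest cells held 58 of 181 and 59 of 162 UMIs.

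Calb1 was scarce and was seen mostly in hair cells. Cluster 17 held 27 UMIs in library 1 and 9 in library 2, or 41.96 and 299.8 CPM, and no other cluster of library 2 held any. In library 1 the next were spiral ganglion neurons with 13.4 CPM from 3 UMIs, cluster 14 with 10.1 CPM from 9 UMIs, all in the cell with Ocm named above, and cluster 12 with 5.76 CPM from 4. Blood lineage cells of library 1 had 0 of 6343119 UMIs, which allows at most 0.473 CPM. With so few counts, no test was made for this gene.

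**Figure D2:**
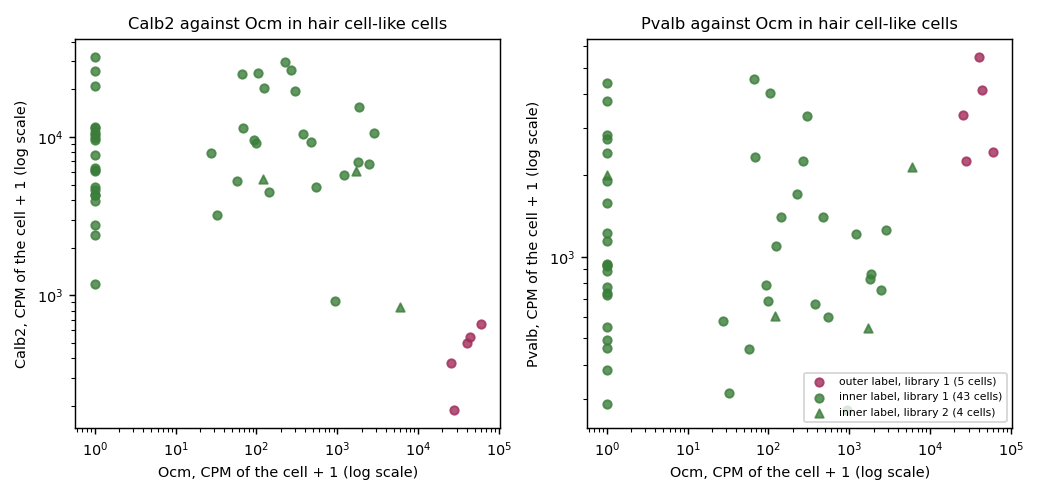
Each point is 1 hair cell-like cell, with Ocm CPM + 1 on the x axis and Calb2 (left) or Pvalb (right) CPM + 1 on the y axis, all log scales. Purple marks the outer and green the inner label, circles library 1 and triangles library 2. The 5 outer-labelled cells have high Ocm and low Calb2, and Pvalb is present in both.

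Hair cells come in an outer row set, which amplifies sound by the motor protein prestin (Slc26a5), and an inner row, which releases glutamate by way of Otof and Slc17a8. Each of the 52 cells was labelled by which marker set had more UMIs, giving 5 outer cells and 47 inner cells. All 5 outer cells were in library 1. Since they are cells of 1 library and not replicates, the following values are a description with no test.

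The 5 outer cells held 149, 410, 545, 568 and 636 Ocm UMIs. In the 47 inner cells Ocm ranged from 0 to 63 with a median of 1, and 22 of them had none. For Calb2 the order was opposite: outer cells held 1, 5, 8, 7 and 7 UMIs in the same cell order, against 9 to 406 in inner cells (median 110). With these labels the ranges do not overlap for either gene, though the Calb2 ranges nearly meet, at 8 and 9 UMIs. By Slc26a5 against Slc17a8 alone, 3 cells were outer, 46 inner and 3, all of cluster 21, had no label. The outer cells with 410 and 636 Ocm UMIs were then inner, so the ranges overlapped, with 149 to 568 Ocm and 1 to 8 Calb2 UMIs in outer cells and 0 to 636 and 5 to 406 in inner cells. The summed Ocm level of inner cells was 1881 CPM by single markers and 412 CPM by the marker sets. Calb1 was found in all 5 outer cells (1 to 10 UMIs) and in 2 of 47 inner cells, with 9 and 1 UMIs.

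The inner cell with 9 Calb1 UMIs, in library 2, also held 63 Ocm UMIs, 9 Calb2 UMIs and 17 outer marker UMIs, 11 of them Chrna10, beside 31 inner marker UMIs. Its Calb2 count was the lowest and its Ocm count the highest among inner cells. Pvalb crossed the boundary: 12 to 72 UMIs in outer cells (median 53) and 4 to 69 in inner cells (median 15). Among inner cells Pvalb and Calb2 went together, with Pearson r = 0.59 and Spearman rho = 0.68 over 47 cells of CPM, which share library and depth, and no p is given. Over all 52 cells r was 0.28 and rho 0.32. Both genes were low in the 14 cells rich in supporting cell markers described with S100a1, with medians of 563.1 CPM of Pvalb and 4298 CPM of Calb2, and both were high in cluster 21. In the 23 inner cells of cluster 17 without those 14, r was 0.18 and rho 0.38.

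The inner cells of cluster 21 and of cluster 17 differed in Calb2, in mitochondrial share and in the markers behind their label. In library 1 the cells of cluster 21 held 0 to 4 Slc17a8 UMIs, with 3 of 9 at 0, against 11 to 52 in those of cluster 17, so the label of cluster 21 rests mostly on Otof (11 to 34 UMIs, against 20 to 82). Of 9 spiral ganglion neuron markers, cluster 21 had a UMI of 3, Nefl, Nefm and Snap25, and Tubb3, Nefh and Slc17a7 were among those at 0. In library 1 the 9 cells of cluster 21 had a median of 25276 CPM of Calb2 and 2726 CPM of Pvalb, against 6552 and 807.6 CPM in the 34 inner cells of cluster 17. All 14 cells rich in supporting cell markers were in cluster 17, and without them the medians of its 20 other inner cells were 9440 CPM of Calb2 and 1214 CPM of Pvalb. The lowest Calb2 level in cluster 21 of library 1, 19622 CPM, lay above the highest in those of cluster 17, 15507 CPM. The lowest mitochondrial share in cluster 17 was 7.119% and the highest in cluster 21 was 3.511%. The part of the mitochondrial share and of these markers in the Calb2 difference was not tested.

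S100a1 was the epithelial member. It had 35712 CPM in the epithelium of library 1 and 25481 in library 2. Hair cell-like cells had 6686 and 2804 CPM, fibrocytes 1072 and 1152, and blood 787.2 and 244. Among fibrocytes, cluster 8 had 3803 and 3953 CPM, above the hair cell-like level in library 2. Stria intermediate cell-like cells (cluster 20) had 4174 CPM in 2 cells of library 1 and 2755 in 19 cells of library 2. The epithelium rose above the other classes by 4.58 ± 0.27 on the log2 scale (adjusted p = 1.78e-62), a contrast in which 29.8% of genes were called. Against the epithelium directly, hair cell-like cells had less, with a log2 fold change of -2.61 ± 0.61 (adjusted p = 0.000172), where 25.9% of genes were called.

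Within the epithelium the order was the same in both libraries. The Fabp7 and Fzd9 cluster (cluster 14) had 53441 and 49667 CPM, the Ucma cluster (13) had 43900 and 32363, and the Fibin and Otol1 cluster (12) had 19502 and 22018. Supporting cells of the organ of Corti (19), found only in library 1, had 31548 CPM. The Slc26a4 and Lrp2 cluster (15) had 5941 and 6689 CPM. Hair cell-like cells had more than that in library 1 (6686 CPM) and less in library 2 (2804 CPM). Per cell, the lowest S100a1 level in cluster 14 was 27047 CPM in library 1, above the upper quartile of cluster 15 (7168). Single cells overlapped, since the highest cell of cluster 15 there had 30367 CPM.

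**Figure D3:**
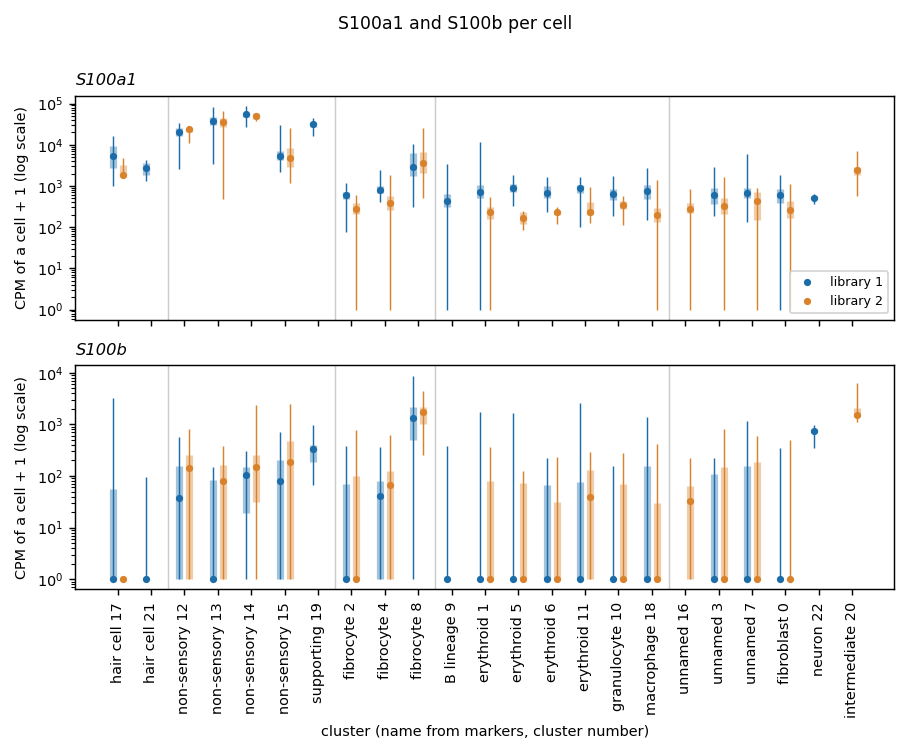
CPM + 1 per cell on a log scale for S100a1 (top) and S100b (bottom), by cluster and library. Dots are medians, thick bars the quartiles and thin bars the range; clusters with fewer than 3 cells in a library are not drawn. S100a1 is highest in cluster 14 and S100b in clusters 8 and 20.

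The hair cell rise of S100a1 moved with supporting cell markers. Its log2 fold change against the other classes was 1.64 ± 0.41 (adjusted p = 0.000322), but -0.57 (adjusted p = 0.304) under the marker gate. Of the 52 hair cell-like cells, 14, all in library 1, held 15 to 71 UMIs of the 10 supporting cell markers, and the other 38 held 0 to 5. The first group held 114 to 570 S100a1 UMIs (median 223.5), against 8 to 116 (median 33.5) in the others, with median depths of 21668 and 12776 UMIs. As CPM the medians were 11675 and 2842. Over the 52 cells the Spearman rho of S100a1 CPM with marker CPM was 0.72, given without a p since both share cells and library. Without these 14 cells the log2 fold change was 0.99 ± 0.40 (adjusted p = 0.0397), an alternative chosen after seeing the data. Of the markers, 9 of 10 had a UMI in the first group and Prox1 was at 0. Their part in what remained was not tested.

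**Figure D4:**
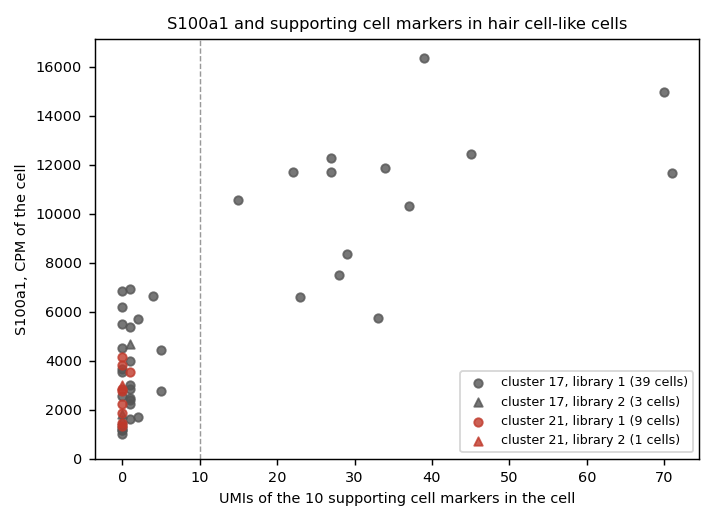
S100a1 CPM against the summed UMIs of the 10 supporting cell markers in each hair cell-like cell, with grey for cluster 17, red for cluster 21, circles for library 1 and triangles for library 2. The dashed line is at 10 UMIs. The 14 cells to its right, all of library 1, hold most of the high S100a1 values.

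S100b was high in the Otos, Car3 and Kcnk2 fibrocytes (cluster 8), lateral wall cells, and in stria intermediate cell-like cells (cluster 20). Cluster 8 had 1574 CPM in library 1 and 1785 in library 2 (1680 ± 149.2, SD, n = 2), against 81.8 CPM and 0 UMIs in hair cell-like cells, 125.3 and 299.7 CPM in the epithelium and 40.5 and 54.4 CPM in blood. The other fibrocyte clusters, 2 and 4, had median cell levels of at most 65.0 CPM. Cluster 20 had 1252 CPM in 2 cells of library 1, under cluster 8, and 1979 in 19 cells of library 2, above it, and spiral ganglion neurons had 677 CPM, in library 1 only. The summed S100b levels of cluster 8 lay above those of every blood cluster in both libraries, while single cells overlapped, with 0 to 8799 CPM in cluster 8 of library 1 and up to 2541 CPM in blood cluster 11.

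Averaged over clusters 2, 4 and 8, fibrocytes and mesenchyme rose above the other classes in S100b. The log2 fold change was 1.16 ± 0.25 (adjusted p = 2.07e-05), where 30.9% of genes were called, 27.2% higher and 3.7% lower. Clusters 2 and 4 had only 41.9 and 57.9 CPM in library 1 and 64.1 and 78.7 CPM in library 2. Cluster 8 had 1574 and 1785 CPM, so the averaged rise does not hold for each cluster. Stria intermediate cell-like cells and spiral ganglion neurons were not fitted, so this contrast leaves them out. Ocm and Calb2 fell in this contrast, with log2 fold changes of -2.26 and -2.29 (adjusted p = 0.000156 and 1.61e-08), at 3.86 CPM and 0 UMIs for Ocm and 26.2 and 3.19 CPM for Calb2 in fibrocytes. The classes they were set against include the hair cell-like one. Connective tissue fibroblasts, another of these classes, had 1.785 and 1.023 CPM of Ocm, but 161.5 and 165.6 CPM of Calb2. The Calb2 call was lost under the same 4 settings (adjusted p = 0.0921 to 0.36). The S100b call was lost at a Leiden resolution of 2.0 (log2 fold change 0.29, adjusted p = 0.3) and under the marker gate (0.29, adjusted p = 0.863). In cluster 8, 9 cells of library 2 and 2 of library 1 held more stria marginal than fibrocyte marker UMIs, with 1512 and 773.4 CPM of S100b, against 1826 and 1599 CPM in the rest. Without them the fold change was 1.16 (adjusted p = 1.41e-05). S100b in hair cell-like cells came mostly from 1 cell with 35 of 61 UMIs, an outer cell.

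In 6 spiral ganglion neurons of library 1 (cluster 22), Pvalb ranged from 75 to 233 UMIs a cell. Calb2 ranged from 1 to 521, with 2 cells at 38 or less and 4 at 192 or more. The summed levels were 4303 CPM for Pvalb and 6682 CPM for Calb2, against 1406 and 8615 CPM in hair cell-like cells of the same library. They come from a single library and so have no replicate check.

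**Figure D5:**
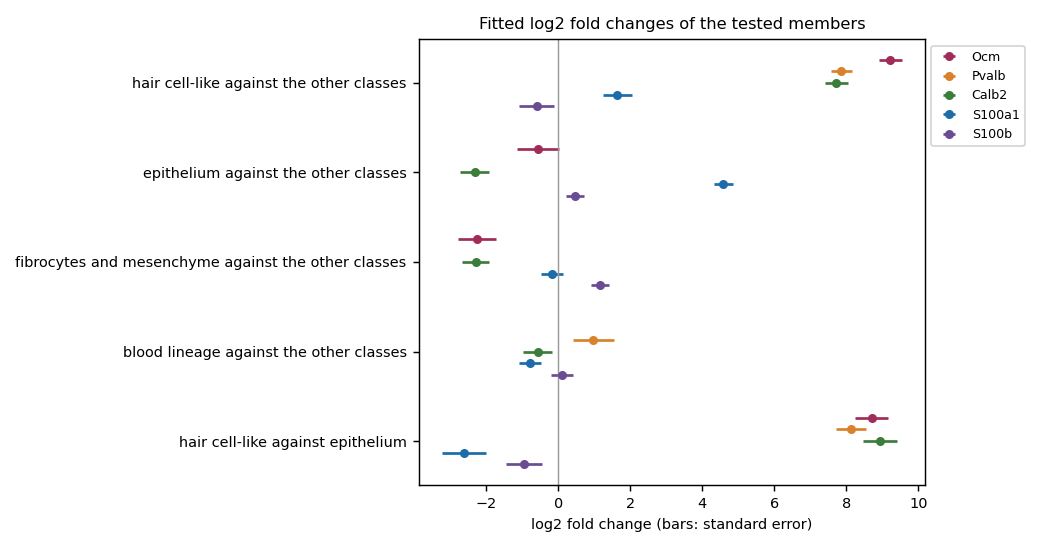
Fitted log2 fold changes of the 5 tested members with standard errors, in 5 contrasts. Pvalb in the epithelium and fibrocyte contrasts and Ocm in the blood contrast are not drawn, since their error could not be estimated. Hair cell-like cells stand out by Ocm, Pvalb and Calb2, and epithelium by S100a1.

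In blood lineage classes, 34.8% of genes were called (8.63% higher and 26.2% lower), and S100a1 fell by 0.79 on the log2 scale (adjusted p = 0.0277). This call was lost without the low-count filter (adjusted p = 0.0701), without the replicate block (0.313), with the stricter cell filter (1) and without the 14 hair cell-like cells named above (0.0527). With at least 10 cells per class and library the change was 0.69 (adjusted p = 0.0335), the opposite direction. S100b, Calb2, Ocm and Pvalb did not pass the test there. The fit also scales depth by TMM factors. In library 1 these were 0.0926, 0.126, 0.224 and 0.718 for erythroid clusters 1, 5, 11 and 6, against 1.452 for hair cell-like cells. In library 2 they were 0.162, 0.284, 0.8435 and 1.028, against 2.279. Fitted fold changes that involve erythroid cells therefore differ from ratios of the CPM given. Without haemoglobin genes blood had 1703 CPM of S100a1 in library 1 and 708.4 CPM in library 2. The level was lower in library 2 on both scales, and S100a1 UMIs were 19.4 times those of S100b in library 1 but 4.49 times in library 2. An S100a1 UMI was found in 99.5% and 91.7% of blood lineage cells, so shares of cells with one do not part the classes.

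Other calcium genes were counted in 5 lists. In hair cell-like cells 21.7% of all genes tested were higher and 11.4% lower. Among calcium sensors, 18 of 37 were tested, and 10 rose and 0 fell in hair cell-like cells, with a median log2 fold change of 1.28 against -0.09 over all genes. Cabp2, Cabp1 and Cib2, which tune calcium channels or belong to the mechanotransduction machinery, rose by 8.43, 7.20 and 6.72. Of 11 tested pumps and exchangers, 6 rose and 0 fell (median 1.60), among them Atp2a3, Slc8a2, Slc24a3 and Atp2b2, the plasma membrane pump of hair bundles, by 7.59, 6.92, 6.67 and 6.14. Among channel genes, 10 of 33 were tested, and 0 rose and 1, Orai1, fell. The untested channel genes have no result here. Of 8 tested other S100 genes, 0 rose and 5 fell in hair cell-like cells (median -1.74), S100a8 and S100a9 among them. The classes set against include blood, where these 2 had 6436 and 4240 CPM in library 1. Hair cell-like cells had 132.8 and 81.8 CPM there, near the epithelium (148.7 and 100.8), and 0 and 1 UMIs in library 2.

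In the epithelium, S100a13, which neighbours S100a1 in the S100 gene cluster, rose by 3.52 ± 0.25 (adjusted p = 2.11e-42), with 6868 CPM in library 1 and 5635 in library 2, against 739 and 138.8 in hair cell-like cells. S100a11 rose by 1.39, and S100a4, S100a8 and S100a9 fell, set against classes that include the blood lineage ones. In fibrocyte classes, where 27.2% of all genes tested were higher, 5 of 10 tested channel genes rose, led by Cacna2d1 and Cacna1g (2.97 and 2.65), and S100a16 rose by 1.46. In blood lineage classes, S100a8 and S100a9, granulocyte proteins, rose by 5.51 and 5.05, and Orai1 by 1.52.

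By Pearson correlation of log2(CPM + 10) over the 34 sums per cluster and library, the genes most like Ocm were Kcp (0.97), Ppp1r27 (0.97) and Car7 (0.96). Most like Pvalb were Ap3b2 (0.96), Kcp and Ppp1r27 (both 0.96), and most like Calb1 were Chrna10, Scn3b and Myo15 (0.98, 0.98 and 0.97). Those most like Calb2 were Cabp2, Espn and Tctex1d1 (0.90, 0.89 and 0.88). Fbxo2 (0.96), Rab25 and Mpzl3 (both 0.93) were most like S100a1. S100b was followed less closely, by Mapk4 (0.825), Cox8b (0.81) and Ptgds (0.80). For Ocm, Pvalb and Calb1 the values rest mostly on the hair cell-like sum of each library, the only high ones. Genes confined to hair cells would therefore score alike. Calb2 was also by far highest in the hair cell-like sums (8615 and 5192 CPM), with fibroblasts next (161.5 and 165.6 CPM). Its values therefore have much the same limit. In library 2 all 9 Calb1 UMIs came from 1 cell, which also held 11 Chrna10 UMIs.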

How the data were processed

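Counts of UMIs per gene and barcode were deposited by the authors, made with Cell Ranger 2.1.0 on build mm10 per the submitters' processing notes. No source used here describes the choice of barcodes. The members and lists were chosen with earlier results of these data known. Cells needed 300 or more genes and a mitochondrial share of 20% or less, and Scrublet doublets (2 and 4) removed, a rate too low to show that all doublets were found. Leiden clustering (scanpy 1.11.5, 2000 variable genes, 30 components, 15 neighbours, resolution 1.0) left out the members, the calcium lists and 13995 genes in all. A cluster took the name of the list with the most raised markers, 3 or more, by thresholds set after the clusters were seen. Counts were summed per cluster and library, with hair clusters 17 and 21 pooled as 1, giving 17 fitted clusters of 9 classes and 34 sums. Clusters 3 and 7, which took no name, each count as a class. The sums were fitted in edgeR 4.0.16 with TMM factors, a minimum count of 10 (8112 genes) and the library as replicate block. The block was used since all classes of a library share a suspension. The 3998 left-out genes were tested at an adjusted p of 0.05. Clusters with fewer than 3 cells or 10000 UMIs in a library were not fitted, unless pooled with a larger cluster of their class. Clusters 9, 16, 19, 20 and 22 therefore entered no contrast. Contrasts average clusters within a class, then classes. Named list genes are up to 4 per list and direction with the largest change past the test and the same sign in both libraries. The F statistic gave the standard errors. The script was tested on simulated data. Alternatives included DESeq2 1.42.0. The loop sequence of S100b is not reported here.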

Additional observations from a re-analysis of the deposited data

Results flagged for a closer look

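The barcodes removed by the filters, 279 in library 1 and 76 in library 2, are in no comparison above, yet they held UMIs of the members above the limit that a count of 0 allows. In library 1 they held 8 of Ocm, 22 of Pvalb, 57 of Calb2, 643 of S100a1 and 82 of S100b. In library 2 they held 4 of Calb2, 659 of S100a1 and 189 of S100b, and 0 of Ocm and Pvalb. Of the library 2 UMIs, 610 of S100a1 and 181 of S100b came from 16 barcodes with a high mitochondrial share, against 49 and 8 from 60 barcodes with few genes. In library 1 the barcodes with few genes held 558 of S100a1 and 54 of S100b. No outlier test applies to 2 libraries.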

How the results depend on the processing

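Under every other setting that could be fitted the log2 fold changes of Ocm, Pvalb and Calb2 in hair cell-like cells against the other classes stayed positive, at 7.83 to 10.04, 6.60 to 8.47 and 6.67 to 9.05 (largest adjusted p = 1.97e-05). That of S100a1 turned to -0.57 (adjusted p = 0.304) under a marker gate on single cells in place of clusters. The gate also gave 596 called genes for the epithelium and 663 for hair cell-like cells against the epithelium, against 1191 and 1036. Without a hold-out of genes the fibrocyte count was 1932 against 1235. With at least 10 cells per class and library the blood count was 779 against 1393, S100a1 in blood turned to 0.69 (adjusted p = 0.0335), Calb2 in blood to 2.25 and S100b in epithelium to -0.072. Hair cell contrasts could not be fitted under that setting, or with a cell minimum of 500 genes and a mitochondrial maximum of 10%, for want of hair cells. The stricter cell filter turned Ocm in epithelium and blood to 0.90 and 1.98, Pvalb in epithelium to 0.042 and Calb2 in blood to 1.60. Other reversals in blood were S100b at -0.10 without haemoglobin genes and -0.0016 without the hold-out, Ocm at 0.31 without the replicate block and 0.041 in DESeq2, and Pvalb at -0.29 without the hold-out and -3.98 under the gate. Without the replicate block Calb2 lost its calls in epithelium (adjusted p = 0.123) and fibrocytes (0.0921). Leaving out 1 library each, a value with no test, gave 7.83 to 8.42 for Ocm, 6.60 to 7.39 for Pvalb and -4.70 to -0.20 for S100b in hair cells, -0.29 to 1.71 for S100b in epithelium, -0.61 to 0.28 for S100a1 in fibrocytes, -1.57 to 0.43 for Pvalb in blood and -5.70 to 0.084 for S100b between hair cells and epithelium. The cause of these changes was not tested. By Slc26a5 against Slc17a8 alone, 3 cells were outer in place of 5, and the inner and outer ranges of Ocm and Calb2 overlapped. Library 2 held 4 hair cell-like cells, which limits every statement on them.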
